A study of Mus musculus with 6 samples.

Results

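Imprinted genes, which are read mainly from the chromosome inherited from 1 parent, were followed in bulk RNA-seq of mouse testis from wild-type (WT) animals and from animals that carry an H3t deletion; H3t is a histone H3 gene used in male germ cells. The members were the 36 genes of a fixed list of imprinted symbols, each matched by its symbol to 1 row of the 54100 genes counted. By textbook parental origin 24 are paternally and 10 maternally expressed, and for Grb10 and Gnas the expressed allele depends on tissue or promoter. RNA came from cryosections of whole testis, with 3 WT and 3 H3t deletion libraries, and the labels name no cell sort. The deletion group carries the H3t deletion, the WT group carries wild-type H3t, and the labels name no treatment for either. The sources used here do not give the strain, the age or whether the deletion is limited to a cell type. Counts were not split by allele, so parental class is a label from background knowledge and allelic use was not measured.

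In somatic cells, methylation laid down at control regions in the egg or the sperm keeps the allele of 1 parent silent, and most imprinted genes lie in clusters in which protein-coding genes and noncoding RNAs of opposite parental expression share such a region. Many of them control fetal growth and are switched down after birth. In the male germ line the inherited marks are erased and the paternal pattern is written anew before meiosis, so germ cells and somatic cells of a testis carry different marks. A cryosection holds both kinds of cell.

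The libraries held 8037826 to 10702930 counts. Counts of H3f4, the current symbol of H3t, were 390, 571 and 356 in the WT libraries and 0 in every deletion library. Values of 3 libraries follow the order of replicates 1, 2 and 3 throughout. Cell type marker lists shifted strongly between the groups. Levels are CPM (counts relative to the library's size, scaled by TMM), and changes are log2 fold changes of deletion minus WT from the quasi-likelihood test of edgeR, with p-values adjusted over all genes tested. With TMM or no scaling factor all 22 Sertoli and all 19 Leydig markers rose. Their summed levels were 1130.0 to 1273 against 5278 to 5368 CPM and 1064 to 1186 against 8963 to 9947 CPM over the WT and the deletion libraries. All 12 macrophage markers rose with TMM (112 to 124 against 555 to 648 CPM), as did 7 of 10 endothelial (75.7 to 78.5 against 146 to 167 CPM). With TMM 8 of 10 peritubular myoid markers rose and 1 fell (718 to 739.7 against 980.8 to 1077 CPM), and of 14 tested stem Leydig and mesenchyme markers 11 rose and 2 fell (310.2 to 349.9 against 1111 to 1166 CPM). All 18 spermatid and all 18 spermatocyte markers fell with TMM (32767 to 34547 against 97.4 to 203 CPM and 8247 to 8839 against 498 to 589 CPM). Of the spermatocyte markers 17 fell with no scaling factor and 16 with scaling to the total without mitochondrial genes. With TMM 10 of 16 tested spermatogonial markers rose and 3 fell (331 to 361 against 640.3 to 707 CPM); Nanos2 was at 0 counts in every library. At Sertoli level these lists turned or thinned: 5 of the macrophage markers rose and 1 fell, 0 endothelial rose and 6 fell, 0 myoid rose and 9 fell, 3 mesenchyme rose and 7 fell, and 2 spermatogonial rose and 10 fell. In bulk tissue fewer cells of a type and less RNA per cell cannot be told apart, and the part of these shifts in the changes of the imprinted genes was not tested. Values after scaling every library to an equal summed level of the Sertoli list (Sertoli-level scaling) or of the Leydig list (Leydig-level scaling) are therefore given beside those with TMM. Over all genes tested the median log2 change was -0.19 with TMM, 0.45 with no scaling factor, -2.31 at Sertoli level and -3.25 at Leydig level.

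With TMM scaling most imprinted genes tested were higher in the deletion testes, while 5 (Asb4, Mirg, Mcts2, Cdkn1c and Kcnq1ot1) were lower; at Sertoli or Leydig level the balance was reversed. The summed level of the 36 members was 639 to 707 CPM over the WT libraries and 1626 to 1677 CPM over the deletion libraries. Mitochondrial genes took 5.59% to 6.44% of counts in the WT libraries and 21.6% to 22.7% in the deletion libraries, and the part of this in the members' changes was not tested beyond a scaling that leaves these genes out. The members' share of raw counts, which uses no scaling factor, was 0.0511% to 0.0559% and 0.203% to 0.209%. Of the 36 members 27 passed the filter on low counts. With TMM scaling 19 of the 27 rose, where 38.4% of all genes tested rose, 5 fell, where 46.1% fell, and 3 (Mest, Snrpn and Begain) did not pass at a false discovery rate of 0.05. In either direction 84.5% of all genes tested passed. In 19 of the 27 every deletion library lay above every WT library, as in 39.2% of all genes tested, and in 6 every one lay below, as in 46.7%, so groups that do not overlap are common in these data. With no scaling factor 21 of the 27 rose, where 49.2% of all genes did, and 4 fell, where 37.7% did. At Sertoli level 3 of the 27 rose (4.51% of all genes), namely Airn, Meg3 and Rian, and 13 fell (76.2%). At Leydig level Meg3 rose (0.493%) and 21 fell (89.4%). Asb4, Mirg, Mcts2 and Cdkn1c fell under TMM, Sertoli-level and Leydig-level scaling and with no scaling factor, and Asb4 had the lowest change of the 27.

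**Figure D1:**
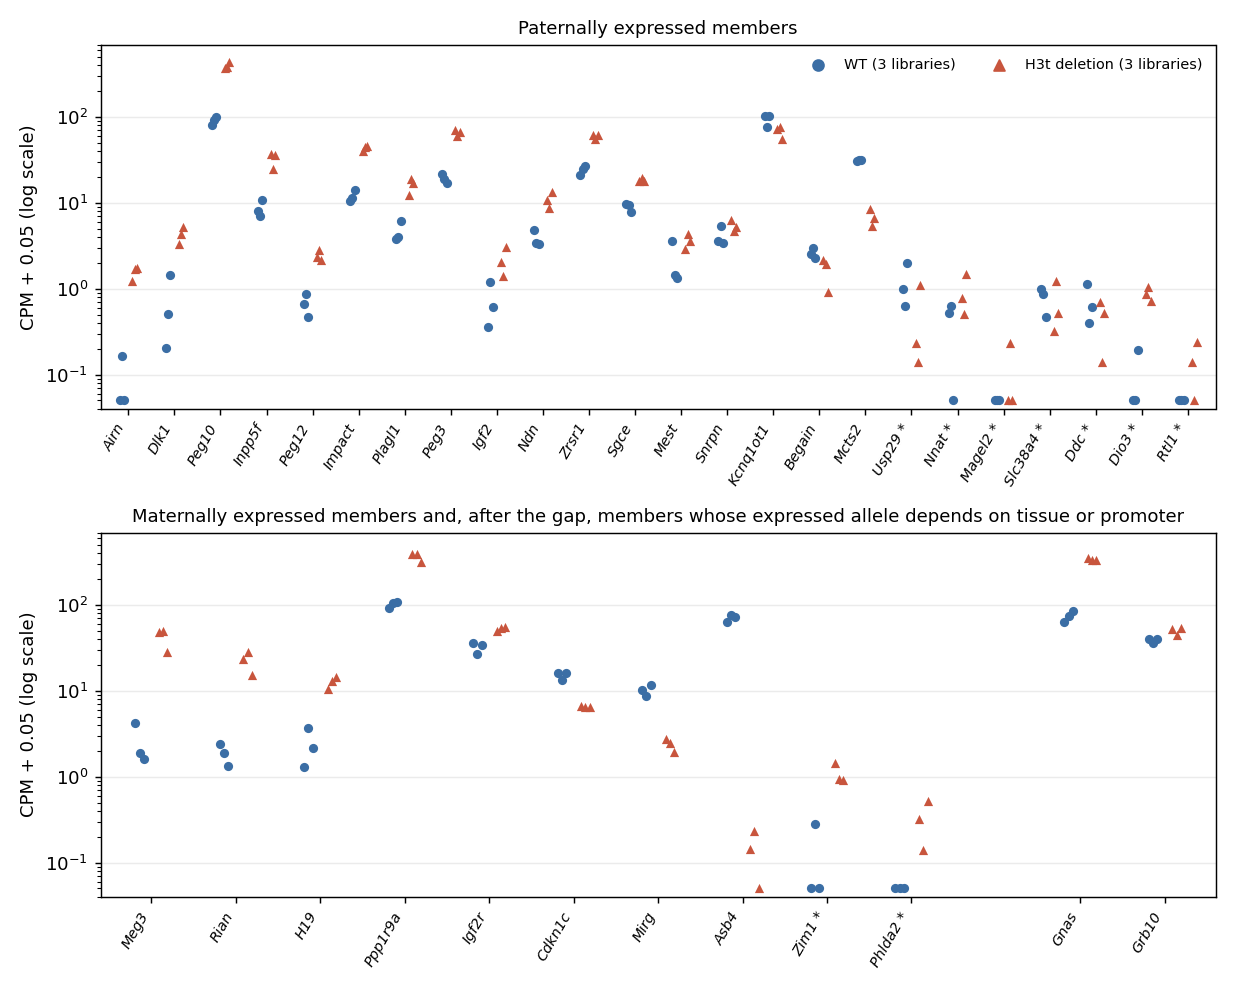
Level of each of the 36 imprinted genes in each library, in TMM-scaled CPM plus 0.05 on a log axis, with 3 WT libraries (circles) and 3 deletion libraries (triangles) per gene; an asterisk marks the 9 members that did not pass the filter on low counts. Within each class genes run from the highest to the lowest fitted change, and Asb4 falls from 63.8 to 77.1 CPM in WT to at most 0.181 CPM in the deletion.

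Rises and falls occurred among both paternally and maternally expressed members. Of the 17 paternally expressed members tested 12 rose and 2 fell with TMM scaling, and 1 rose and 7 fell at Sertoli level. Of the 8 maternally expressed members tested 5 rose and 3 fell with TMM scaling, and 2 rose and 5 fell at Sertoli level. Of all genes tested 38.4% rose and 46.1% fell with TMM, and 4.51% rose and 76.2% fell at Sertoli level. Median log2 changes with TMM were 1.58 for the paternal members, with a range of -2.20 to 4.70, and 1.29 for the maternal members, with a range of -9.38 to 4.09, beside -0.19 over all genes tested. The maternal median rests on few genes: it was 1.94 without deletion replicate 3, when Zim1 entered the test, and 0.73 without Ppp1r9a, whose imprinting depends on tissue. At Sertoli level the medians were -0.51 and -0.84. The difference between the classes was not tested.

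**Figure D2:**
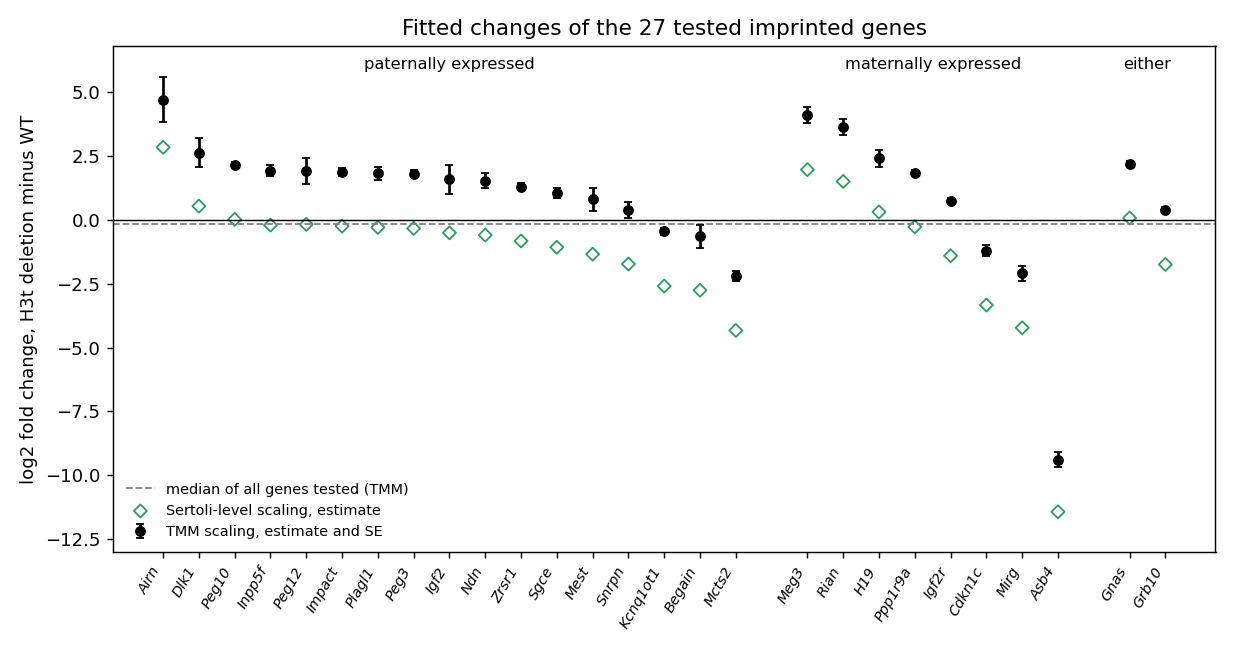
Fitted log2 fold change (deletion minus WT) of the 27 imprinted genes tested, by parental class, with TMM scaling (filled points, bars are standard errors) and with Sertoli-level scaling (open diamonds); the dashed line is the median of all genes tested with TMM. Rises and falls occur in both classes; at Sertoli level the open diamonds of Airn, Meg3 and Rian stay above 1, while most others lie at or below 0.

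The Igf2-H19 and Kcnq1 domains on chromosome 7 held both directions. H19, a maternally expressed noncoding RNA of fetal tissues (GRCm38 chromosome 7, 142575529 to 142578143, minus strand), was at 1.25, 3.60 and 2.11 CPM in WT and 10.6, 13 and 14.7 CPM in the deletion. All 3 deletion libraries lay above the WT libraries. H19 rose by 2.41 on the log2 scale (SE 0.33, adjusted p = 5.26e-06). H19 was at 0.31 at Sertoli level, where it did not pass (adjusted p = 0.421), and -0.63 at Leydig level. Its neighbour Igf2, the fetal growth factor (GRCm38 chromosome 7, 142650766 to 142666816), had only 2, 10 and 4 counts in WT and 22, 15 and 32 in the deletion, for a log2 change of 1.58 (SE 0.57, adjusted p = 0.0173). That call of Igf2 did not hold with DESeq2 (1.46, adjusted p = 0.0618) or without WT replicate 1, WT replicate 3 or deletion replicate 3 (1.24, 1.42 and 1.25), and without WT replicate 2 the value was 2.23. Of the 50-base words of Igf2's transcripts 62.1% are shared with other annotated genes, mainly Gm49394, so its reads and theirs cannot be told apart with certainty. Within each library, where no scaling enters, the log2 ratio of H19 to Igf2 counts was 1.77, 1.58 and 1.78 in WT and 2.36, 3.22 and 2.25 in the deletion, without overlap of the groups.

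In the Kcnq1 domain the most abundant members were lower in the deletion testes. Cdkn1c, an inhibitor of cyclin-dependent kinases (GRCm38 chromosome 7, 143458339 to 143461050), was at 16.3, 13.3 and 15.9 CPM in WT and 6.63, 6.51 and 6.48 CPM in the deletion. All deletion libraries lay below all WT libraries, with a log2 change of -1.21 (SE 0.21, adjusted p = 6.16e-05) that was -3.34 at Sertoli level and -0.30 when libraries were scaled to the total without mitochondrial genes, where it did not pass. For Cdkn1c 24.9% of the words are shared, mainly with the opposite-strand Gm44732. Kcnq1ot1, the paternal noncoding RNA that silences genes around it and is annotated as a single exon inside Kcnq1 (GRCm38 chromosome 7, 143203458 to 143296549), was at 103, 77.7 and 103 CPM in WT and 72.5, 77.1 and 56.3 CPM in the deletion. Its change of -0.46 with TMM (SE 0.13, adjusted p = 0.00510) became 0.18 with no scaling factor and 0.45 without mitochondrial genes, so its direction rests on the scaling. The protein-coding Kcnq1, a potassium channel gene that holds it, had 36 counts over the WT libraries and 3 over the deletion libraries. Phlda2, a growth-limiting gene of the placenta, had 0 counts in each WT library and 3, 1 and 5 in the deletion. With TMM scaling the deletion level was 2.05-fold a floor of 3 counts over the WT libraries, a value that leaves out the counting error of the deletion counts. In the edgeR test without the filter on low counts Phlda2 did not pass (adjusted p = 0.0878).

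The Dlk1-Meg3 domain on chromosome 12 held the largest rises among the maternal genes and a fall beside them. Meg3, Rian and Mirg are maternal noncoding RNAs that follow each other on the plus strand, and Rian hosts small nucleolar RNAs and Mirg microRNAs. Meg3 (GRCm38 chromosome 12, 109541001 to 109571726) was at 4.2, 1.86 and 1.55 CPM in WT and 48.2, 49.7 and 28.5 CPM in the deletion. Rian (chromosome 12, 109603940 to 109661716) was at 2.33, 1.86 and 1.27 CPM in WT and 23.2, 28.7 and 15.2 CPM in the deletion. For both genes every deletion library lay several-fold above every WT library, and deletion replicate 3 was the lowest of its group. Meg3 rose by 4.09 (SE 0.31, adjusted p = 5.71e-09) and Rian by 3.62 (SE 0.31, adjusted p = 2.48e-08), or 1.96 and 1.5 at Sertoli level and 1.02 and 0.57 at Leydig level, where Rian did not pass. Of Meg3's words 10.4% are shared, mainly with the opposite-strand Gm26906.

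Mirg (chromosome 12, 109729764 to 109749460) went the other way. It was at 10.1, 8.72 and 11.6 CPM in WT and 2.67, 2.44 and 1.91 CPM in the deletion, all deletion libraries below all WT libraries. It fell, with a log2 change of -2.10 (SE 0.29, adjusted p = 7.46e-06) and of -4.23 at Sertoli level. The log2 ratio of Mirg to Meg3 counts within each library was 1.25, 2.19 and 2.84 in WT and -4.15, -4.32 and -3.87 in the deletion. Mirg thus exceeded Meg3 in every WT library and Meg3 exceeded Mirg in every deletion library. The ratio of Rian to Meg3 was -0.83, 0.00 and -0.28 in WT and -1.05, -0.79 and -0.91 in the deletion, and these groups overlap. Per length, WT levels were 1.39 ± 0.195 CPM per kb of exon for Mirg, 0.14 ± 0.0802 for Meg3 and 0.0999 ± 0.0293 for Rian (mean ± SD, n = 3). In the deletion they were 0.321 ± 0.0538, 2.33 ± 0.654 and 1.23 ± 0.373 CPM per kb in turn.

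The protein-coding members of the domain are paternally expressed and were scarce. Dlk1, a Notch-related membrane protein of progenitor cells (GRCm38 chromosome 12, 109452823 to 109463336), had 1, 4 and 10 counts in WT and 36, 47 and 55 in the deletion and rose by 2.63 (SE 0.56, adjusted p = 4.34e-04), or by 3.61 without WT replicate 3. At Sertoli level Dlk1 was at 0.53 and did not pass, and at Leydig level it was at -0.40. Dio3, which inactivates thyroid hormone, had 0, 0 and 1 and 9, 11 and 7 counts. With TMM scaling this was a ratio of 18.4 with an exact counting interval of 3.04 to 755. Rtl1, a gene derived from a retrotransposon, had 3 counts in the deletion libraries together and 0 in WT. Begain, at the start of the domain, was at 2.49, 2.91 and 2.26 CPM in WT and 2.12, 1.90 and 0.858 CPM in the deletion and did not pass with TMM (log2 change -0.65, SE 0.46, adjusted p = 0.199), while at Sertoli level it was at -2.76 (adjusted p = 6.46e-05).

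**Figure D3:**
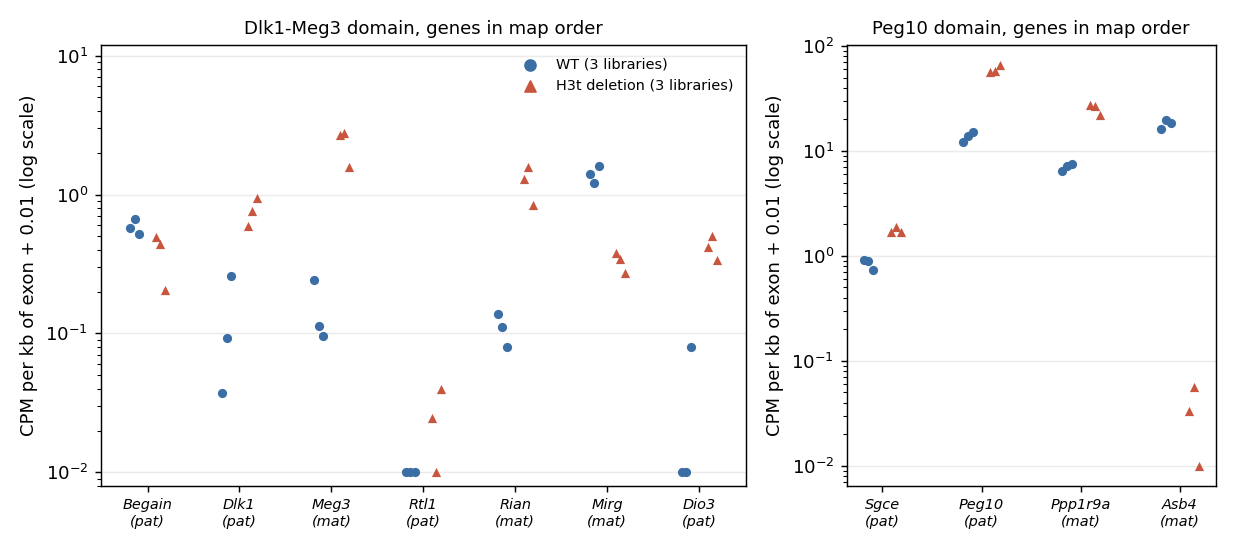
Level per length, in CPM per kb of exon plus 0.01 on a log axis, of the members of the Dlk1-Meg3 domain (left) and of the Peg10 domain (right) in map order, with 3 WT libraries (circles) and 3 deletion libraries (triangles); pat and mat give the expressed parental copy. Mirg and Asb4 lie lower in the deletion, next to Rian and Ppp1r9a, which lie higher.

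In the Peg3 domain Peg3 and Usp29 start back to back, 146 bases apart, and the ratio of their counts differed between the groups. Peg3, a paternally expressed zinc finger protein (GRCm38 chromosome 7, 6703892 to 6730431, minus strand), was at 21.8, 19 and 17.1 CPM in WT and 71.6, 60.5 and 68.0 CPM in the deletion. The groups did not overlap, and Peg3 rose by 1.79 (SE 0.13, adjusted p = 4.67e-09). Peg3 was at -0.34 at Sertoli and -1.28 at Leydig level. Usp29, a ubiquitin protease gene on the plus strand (GRCm38 chromosome 7, 6730578 to 6967219), had 6, 5 and 14 counts in WT and 2, 1 and 11 in the deletion. Its groups overlap in CPM, and it did not pass the filter on low counts. Within each library the log2 ratio of Usp29 to Peg3 was -4.43, -4.89 and -3.07 in WT and -8.28, -8.80 and -5.96 in the deletion, all deletion libraries below all WT libraries. The stretch between the start sites is shown because both genes read away from it. It is given on the plus strand at chr7:6730432-6730577 (RefSeq, GRCm38.p6, without bases that GENCODE M21 annotates as exon), with the dinucleotide CG, the target of imprinting methylation, in capitals:
Peg3-Usp29: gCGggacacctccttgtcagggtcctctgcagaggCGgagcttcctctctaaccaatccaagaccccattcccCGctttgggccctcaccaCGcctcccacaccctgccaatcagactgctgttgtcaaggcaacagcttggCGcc
It holds 5 CG, which reads the same on both strands, and 45.3% of all promoter windows of this length hold at least as many. Zim1, a maternal zinc finger gene next to Peg3, had 0, 2 and 0 and 15, 10 and 9 counts. With TMM scaling this was a ratio of 11.6 with an exact counting interval of 2.97 to 99.7. Zim3, which overlaps Usp29 on the other strand and is no member, had 20, 25 and 17 counts in WT and 0 in each deletion library. Of Usp29's words 14.9% are shared, mainly with Zim3, and their exons overlap by 2582 bases. Reads of Usp29 and Zim3 can therefore not be told apart with certainty, which also limits the ratio of Usp29 to Peg3.

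The Peg10 domain on chromosome 6 held the most abundant riser and the deepest fall. Peg10, a paternally expressed gene derived from a retrotransposon (GRCm38 chromosome 6, 4747306 to 4760517), was at 81.1, 93.1 and 100.2 CPM in WT and 378, 388 and 443 CPM in the deletion. The groups lay far apart, and Peg10 rose by 2.14 (SE 0.10, adjusted p = 1.86e-11). Peg10 was at 0.01 at Sertoli level, where it did not pass, and -0.93 at Leydig level. Sgce, which codes for epsilon-sarcoglycan and starts back to back with Peg10, was at 9.65, 9.30 and 7.75 CPM in WT and 17.8, 19.7 and 17.8 CPM in the deletion. Sgce rose by 1.05 (SE 0.19, adjusted p = 8.55e-05). Sgce was at -1.08 at Sertoli level and -2.02 at Leydig level. The log2 ratio of Sgce to Peg10 was -3.06, -3.32 and -3.68 in WT and -4.41, -4.30 and -4.63 in the deletion, so the share of Sgce was lower in every deletion library.

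With TMM scaling the maternal genes of this domain moved in opposite directions, while at Sertoli and Leydig level both fell. Ppp1r9a, which codes for the actin-binding protein neurabin (GRCm38 chromosome 6, 4902917 to 5165661, plus strand), was at 93.4, 105 and 109 CPM in WT and 395, 389 and 321 CPM in the deletion. All deletion libraries were the higher, and Ppp1r9a rose by 1.84 (SE 0.10, adjusted p = 1.30e-10). At Sertoli level Ppp1r9a was at -0.28 (adjusted p = 0.0336) and at Leydig level at -1.22. Asb4, an ankyrin repeat protein of a ubiquitin ligase (GRCm38 chromosome 6, 5383386 to 5433022, plus strand), had 410, 663 and 511 counts in the WT libraries and 1, 2 and 0 in the deletion libraries. Its level was 63.8, 77.1 and 72.0 CPM in WT, and the WT to deletion ratio was 774, with an exact counting interval of 264 to 3755. The fitted log2 change of Asb4 was -9.38 (SE 0.30, adjusted p = 1.26e-13), or -10.17 without deletion replicate 2, which held 2 of the 3 counts. Bases before the start sites are shown for these genes of the domain, which moved in opposite directions with TMM scaling. The stretches are given on the plus strand, at chr6:4902725-4902916 and chr6:5383136-5383385 (RefSeq, GRCm38.p6, exon bases left out, CG in capitals):
Ppp1r9a: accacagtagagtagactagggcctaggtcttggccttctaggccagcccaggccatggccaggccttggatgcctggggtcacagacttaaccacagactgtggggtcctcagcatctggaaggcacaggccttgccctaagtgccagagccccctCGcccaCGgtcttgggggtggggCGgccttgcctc
Asb4: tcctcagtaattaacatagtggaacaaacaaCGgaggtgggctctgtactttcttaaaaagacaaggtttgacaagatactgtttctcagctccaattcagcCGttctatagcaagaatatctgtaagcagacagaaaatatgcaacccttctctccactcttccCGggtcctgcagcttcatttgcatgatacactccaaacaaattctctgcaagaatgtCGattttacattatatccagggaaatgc
The Ppp1r9a stretch holds 3 CG in 192 bases and the Asb4 stretch 4 in 250 bases, counts that 64.6% and 62.2% of all promoter windows of the same length reach.

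Of the Snrpn-Magel2 domain on chromosome 7, whose 4 members are paternally expressed, 2 of 3 tested rose with TMM scaling, and 0 rose and 1, Snrpn, fell at Sertoli level. Ndn, of the MAGE family (GRCm38 chromosome 7, 62346569 to 62350262), was at 4.83, 3.37 and 3.24 CPM in WT and 10.8, 8.77 and 13.3 CPM in the deletion. Ndn rose by 1.53 (SE 0.28, adjusted p = 1.16e-04). Ndn was at -0.60 at Sertoli and -1.55 at Leydig level. Peg12, a relative of the Wnt regulators FRAT, had 4, 7 and 3 counts in WT and 25, 31 and 22 in the deletion. Peg12 rose by 1.91 (SE 0.50, adjusted p = 0.00236). Peg12 was at -0.18 at Sertoli and -1.12 at Leydig level. Snrpn, a core protein of the spliceosome, was at 3.58, 5.35 and 3.38 CPM in WT and 6.26, 4.70 and 5.24 CPM in the deletion, with overlap. It did not pass with TMM (log2 change 0.38, SE 0.32, adjusted p = 0.270). Its change was 1.02 with no scaling factor and -1.73 at Sertoli level, both past the threshold in opposite directions, and 26.5% of its words are shared, mainly with Gm38393. Magel2, also of the MAGE family, had 0 counts in WT and 2 in the deletion, all in replicate 2.

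Igf2r and its antisense RNA both rose with TMM scaling. Igf2r, the maternally expressed receptor that clears IGF2 (GRCm38 chromosome 17, 12682406 to 12769664, minus strand), was at 35.8, 27.2 and 34.0 CPM in WT and 49.8, 54.3 and 55.8 CPM in the deletion. The groups did not overlap and the log2 change was 0.73 (SE 0.13, adjusted p = 9.54e-05). Igf2r was at -1.41 at Sertoli and -2.35 at Leydig level, and was not past the test against a 1.5-fold change (adjusted p = 0.0686). Airn, the paternal RNA that starts inside Igf2r on the plus strand and silences it in embryonic tissues (GRCm38 chromosome 17, 12741311 to 12860136), had 0, 1 and 0 counts in the WT libraries and 13, 18 and 18 in the deletion libraries. The deletion to WT ratio was 33.4, with an exact counting interval of 5.73 to 1348. The fitted log2 change of Airn was 4.70 (SE 0.86, adjusted p = 1.17e-04) and 2.83 at Sertoli level. At Leydig level it was 1.96 and did not pass (adjusted p = 0.138). Without WT replicate 2, which held the WT count, it was 6.81. Exons of Airn and Igf2r share 0 bases in GENCODE M21.

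Grb10 and Gnas, whose expressed allele depends on tissue or promoter, were both abundant. Gnas codes for the G protein alpha subunit that couples receptors such as that for luteinizing hormone to cyclic AMP (GRCm38 chromosome 2, 174284320 to 174346744), and was at 62.7, 75.6 and 84.6 CPM in WT and 352, 335 and 334 CPM in the deletion. It rose by 2.19 (SE 0.11, adjusted p = 2.04e-11). Gnas was at 0.07 at Sertoli level, where it did not pass, and -0.87 at Leydig level. Of Gnas's words 18.6% are shared, mainly with Gm20721. Grb10, an adaptor that dampens insulin receptor signals (GRCm38 chromosome 11, 11930508 to 12038683), was at 40.2, 36.4 and 40.5 CPM in WT and 53.1, 44.4 and 54.6 CPM in the deletion. Its change of 0.38 (SE 0.12, adjusted p = 0.00974) did not pass with median-of-ratios scaling (0.21) or DESeq2 (0.21). Grb10 was -1.75 at Sertoli level and -2.70 at Leydig level. Ddc, its neighbour that decarboxylates aromatic amino acids, had 7, 3 and 4 counts in WT and 7, 1 and 5 in the deletion and did not pass the filter.

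The imprinted retrogenes Mcts2 and Zrsr1, both paternally expressed copies inside introns of other genes, moved in opposite directions with TMM scaling, and the counts of Mcts2 relative to its host were lower, and those of Zrsr1 higher, in every deletion library. Mcts2, a copy of the translation factor gene Mcts1 inside H13 (GRCm38 chromosome 2, 152687035 to 152687946), was at 31.1, 31.4 and 32.0 CPM in WT and 8.47, 5.34 and 6.67 CPM in the deletion. All deletion libraries lay far below all WT libraries, and Mcts2 fell, with a log2 change of -2.20 (SE 0.19, adjusted p = 2.65e-08). Mcts2 was at -4.33 at Sertoli level. H13, the host, which codes for a signal peptide peptidase, changed by 0.38 with TMM (SE 0.13, adjusted p = 0.0115). That call was lost, among other settings, at a false discovery rate of 0.01, with DESeq2, without WT replicate 3 or without deletion replicate 1. H13 did not rise at Leydig level. The log2 ratio of Mcts2 to H13 was -0.84, -0.83 and -0.46 in WT and -3.17, -3.50 and -3.26 in the deletion. The X-linked Mcts1 went from 2.01 ± 0.704 to 7.37 ± 3.53 CPM with TMM (SD, n = 3; log2 change 1.87, SE 0.42, adjusted p = 7.10e-04). Mcts1 did not rise at Sertoli or Leydig level. The log2 ratio of Mcts2 to Mcts1 counts was 4.12, 4.32 and 3.47 in WT and -0.37, -0.44 and 0.76 in the deletion. Mcts2 thus had over 10 times the counts of Mcts1 in every WT library, while in the deletion libraries the counts of the copies differed by less than 2-fold. Of Mcts2's words 0.695% are shared with other genes.

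Zrsr1, a splicing factor related to U2AF (GRCm38 chromosome 11, 22972005 to 22976496, plus strand), was at 21.2, 25 and 27.2 CPM in WT and 61.8, 56.2 and 62.2 CPM in the deletion. It rose by 1.29 (SE 0.13, adjusted p = 1.55e-07), and was at -0.83 at Sertoli and -1.77 at Leydig level. Its host Commd1, which regulates copper export and lies on the other strand, was at 79.9, 86.9 and 101 CPM in WT and 17.7, 19 and 19.4 CPM in the deletion. Commd1 fell by 2.25 on the log2 scale (SE 0.12, adjusted p = 1.03e-10). The log2 ratio of Zrsr1 to Commd1 was -1.91, -1.79 and -1.88 in WT and 1.80, 1.56 and 1.67 in the deletion. Commd1 was the more counted gene in each WT library and Zrsr1 in each deletion library. Their exons overlap by 412 bases on opposite strands, and 7.13% of Zrsr1's words are shared with Commd1 or others. The X-linked relative Zrsr2 changed by 1.76 with TMM (SE 0.15, adjusted p = 1.96e-08). The log2 ratio of Zrsr1 to Zrsr2 was 0.91, 0.85 and 1.08 in WT and 0.60, 0.36 and 0.49 in the deletion. Bases before both retrogenes, plus strand, at chr2:152686898-152687034 and chr11:22971755-22972004, are shown because the copies moved in opposite directions with TMM scaling (RefSeq, GRCm38.p6, exon bases left out, CG in capitals):
Mcts2: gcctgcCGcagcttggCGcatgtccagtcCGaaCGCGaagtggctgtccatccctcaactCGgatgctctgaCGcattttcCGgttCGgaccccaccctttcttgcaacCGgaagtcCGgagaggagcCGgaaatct
Zrsr1: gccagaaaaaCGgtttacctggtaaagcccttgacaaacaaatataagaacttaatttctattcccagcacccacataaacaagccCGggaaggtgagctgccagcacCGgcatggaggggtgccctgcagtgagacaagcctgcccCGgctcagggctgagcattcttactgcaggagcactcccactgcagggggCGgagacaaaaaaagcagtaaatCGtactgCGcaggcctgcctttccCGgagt
The Mcts2 stretch holds 12 CG in 137 bases, a number that 20.8% of all promoter windows of that length reach, and the Zrsr1 stretch 8 in 250 bases, which 43.0% reach.

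**Figure D4:**
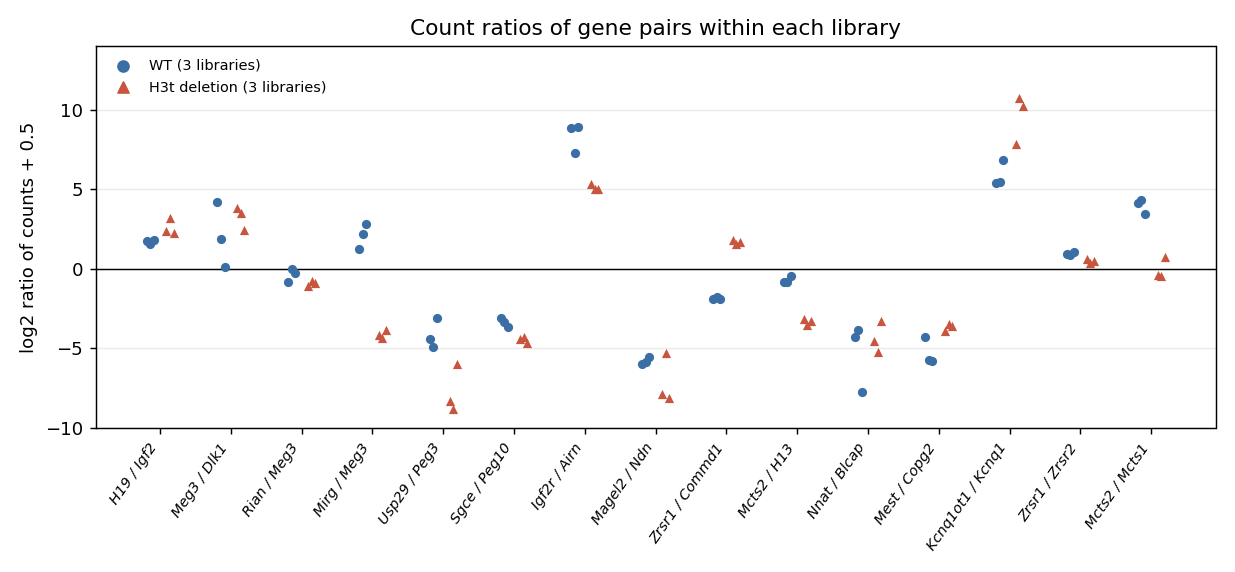
Log2 ratio of counts plus 0.5 for 15 pairs of neighbouring, nested or related genes within each library, with 3 WT libraries (circles) and 3 deletion libraries (triangles) per pair; no scaling factor enters. Mirg to Meg3 and Mcts2 to Mcts1 lie lower and Zrsr1 to Commd1 higher in every deletion library, while Rian to Meg3, Meg3 to Dlk1, Magel2 to Ndn and Nnat to Blcap overlap between the groups.

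Among the other single genes, all paternally expressed, Impact, Plagl1 and Inpp5f rose with TMM scaling and were below 0 at Sertoli and Leydig level. Impact, which restrains the amino acid sensor GCN2 (GRCm38 chromosome 18, 12955852 to 12992950), was at 10.4, 11.5 and 14.1 CPM in WT and 40.7, 44.7 and 46.6 CPM in the deletion (log2 change 1.87, SE 0.16, adjusted p = 1.95e-08; -0.25 at Sertoli level). Plagl1, a zinc finger transcription factor that regulates other imprinted genes (GRCm38 chromosome 10, 13060504 to 13131694), was at 3.74, 3.95 and 6.06 CPM in WT and 12.4, 18.9 and 17.3 CPM in the deletion (log2 change 1.82, SE 0.26, adjusted p = 8.62e-06; -0.30 at Sertoli level). Inpp5f, an inositol phosphatase gene of which a shorter isoform is imprinted (GRCm38 chromosome 7, 128611328 to 128696425), was at 8.09, 7.09 and 10.9 CPM in WT and 37.1, 25 and 35.8 CPM in the deletion (log2 change 1.92, SE 0.21, adjusted p = 4.90e-07; -0.21 at Sertoli level), and its isoforms were not counted apart. Mest, an enzyme of the alpha/beta hydrolase family, was at 3.58, 1.40 and 1.27 CPM in WT and 2.86, 4.25 and 3.53 CPM in the deletion, with overlap, and did not pass with TMM (0.79, SE 0.45, adjusted p = 0.115). Its change was 1.43 with no scaling factor, 1.37 without WT replicate 1 and -1.35 at Sertoli level, each past the threshold. Of Mest's words 21.2% are shared, mainly with Copg2 on the other strand. Copg2 was at -0.73 on the log2 scale with TMM, -0.09 with no scaling factor and 0.18 without mitochondrial genes, and did not pass with the latter scalings. Nnat, a membrane proteolipid of neurons inside Blcap, had 3, 5 and 0 counts in WT and 8, 5 and 15 in the deletion. Slc38a4, an amino acid transporter, had 6, 7 and 3 and 3, 13 and 5, and both genes had too few for the filter.

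Per length, the order of the members changed between the groups. In WT the highest were Mcts2 at 34.5 ± 0.489, Asb4 at 18.1 ± 1.70 and Peg10 at 13.7 ± 1.45 CPM per kb of exon (SD, n = 3). Cdkn1c at 7.44 ± 0.823, Ppp1r9a at 7.05 ± 0.554 and Gnas at 6.64 ± 0.982 followed and lay within about 1 SD of their neighbours in that order. In the deletion Peg10 was highest at 60.5 ± 5.20, followed by Gnas at 30.4 ± 0.897, Ppp1r9a at 25.3 ± 2.84 and Zrsr1 at 13.4 ± 0.737 CPM per kb. Impact at 8.58 ± 0.587 and Mcts2 at 7.49 ± 1.73 came next. Their difference was smaller than the SD of Mcts2 but larger than that of Impact. Lengths are those of all annotated exons together, so a gene read from a shorter isoform is understated.

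Of the 9 members that did not pass the filter, Zim1 and Dio3 had adjusted p-values of 0.00568 and 0.00919 when every gene with a count was tested, and the other 7 did not pass there. For Zim1, Dio3 and Phlda2 every deletion library lay above every WT library, which held for 39.2% of the genes that passed the filter, and for Usp29, Nnat, Slc38a4, Ddc, Magel2 and Rtl1 the groups overlapped.

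Imprinted genes outside the 36 moved in both directions, with a balance that rested on the scaling. Of 23 tested genes of a further list 7 rose and 10 fell with TMM scaling, 2 rose and 19 fell at Sertoli level and 0 rose and 21 fell at Leydig level. With no scaling factor 10 rose and 8 fell, and with DESeq2 3 rose and 11 fell. Of all genes 38.4% rose and 46.1% fell with TMM, and 4.51% rose and 76.2% fell at Sertoli level. At Leydig level 0.493% of all genes rose and 89.4% fell, and with no scaling factor 49.2% rose and 37.7% fell. With DESeq2 5848 of 17038 genes rose and 8164 fell. The median log2 change of the 23 with TMM was 0.00. Of its paternally expressed genes 0 of 7 tested rose with TMM, 2 with no scaling factor and 3 without mitochondrial genes. With TMM 3 fell, namely Zdbf2 at -1.25 (SE 0.11, adjusted p = 3.34e-08), Sfmbt2, of a Polycomb-related family, at -3.30 (SE 0.14, adjusted p = 4.47e-12), and Rasgrf1, which activates Ras, at -3.50 (SE 0.58, adjusted p = 4.33e-05). Of its maternally expressed genes 7 of 16 tested rose and 7 fell with TMM. The rises numbered 3 with median-of-ratios scaling, DESeq2 or the test against a 1.5-fold change, 4 at a false discovery rate of 0.01 and 8 with no scaling factor. Among the most abundant, Cd81, a membrane tetraspanin, rose from 39.2 ± 1.14 to 289.6 ± 12.7 CPM (SD, n = 3) with H13 as given above. Atp10a, a phospholipid flippase, fell from 114 ± 5.23 to 10.2 ± 2.80 CPM. Nap1l4, a histone chaperone, went from 209.7 ± 14 to 122 ± 6.67 CPM, a log2 change of -0.78 with TMM and of -0.14 with no scaling factor, where it did not pass.

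Genes that set or guard imprints also moved in both directions with TMM scaling. Of 18 tested 10 rose and 6 fell, beside 38.4% and 46.1% of all genes, and 6 rose past the test against a 1.5-fold change. At Sertoli level 1 (Tet2) rose and 14 fell, beside 4.51% and 76.2% of all genes, and at Leydig level 0 rose and 17 fell, beside 0.493% and 89.4%. Dppa3 was at 0 counts in every library. Zfp57, which holds imprints in place by binding methylated control regions, went from 41.8 ± 5.78 to 1.98 ± 0.598 CPM (SD, n = 3; -4.39, SE 0.22, adjusted p = 4.03e-11), and its partner Trim28 from 259 ± 15.8 to 80.1 ± 6.45 CPM (-1.70, SE 0.09, adjusted p = 1.13e-10). Dnmt3l, a cofactor of germ line methylation, was at -4.05 and Uhrf1, which brings Dnmt1 to replicated DNA, at -2.67, and both fell. With TMM the methyltransferases Dnmt3a and Dnmt3b rose by 2.13 and 1.24, and the oxidising enzymes Tet1, Tet2 and Tet3 by 1.63, 2.71 and 2.39. Ctcf, Arid4a and Arid4b also rose with TMM, by 0.49, 0.79 and 0.49, and were at -1.64, -1.34 and -1.64 at Sertoli level, where they fell. Ctcf and Arid4b were not past the test against a 1.5-fold change (adjusted p = 0.634 and 0.668). At Sertoli level Dnmt3a was at -0.01 and did not pass, and Dnmt3b was at -0.88. At Leydig level Dnmt3a, Dnmt3b, Tet1, Tet2 and Tet3 were below 0. Dnmt1 did not pass with TMM (0.20, SE 0.09, adjusted p = 0.0589) and passed with limma voom (0.20, adjusted p = 0.0437). Its change was 0.84 with no scaling factor, -1.93 at Sertoli level and -2.86 at Leydig level, each past the threshold.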

How the data were processed

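Per the labels' protocols, libraries came from RNA of testis cryosections and a SMART-Seq kit that keeps strand. The authors deposited raw counts of reads per Ensembl gene, made with Trim Galore, HISAT2 and featureCounts on GRCm38, per the submitters' processing notes; their versions, the annotation release and the strand option were not given in the sources used here. Reads of overlapping or antisense genes can therefore not be assigned with certainty. All 54100 genes matched GENCODE M21 by identifier and chromosome, and 0 per-sample columns were left unused. Libraries were grouped by labelled genotype. Titles carry a different m number for each library, whose meaning is not stated, and nothing in the labels states that libraries came from separate animals. The p-values therefore set the group difference against the spread among these libraries only, and that spread may be technical. 1 count was worth 0.0904 to 0.156 CPM. Intervals at 95% and floors of 3 counts cover counting error only. The ratios given with such intervals or floors use TMM-scaled library sizes and were not computed at Sertoli or Leydig level.

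Genes passing filterByExpr (17038) were scaled by TMM and fitted with edgeR 4.0.16 in R 4.3.3 (quasi-likelihood test, Benjamini-Hochberg adjustment over all genes, false discovery rate 0.05). The standard error is the log2 fold change over the root of the F statistic. The fitting steps were also run on simulated counts, with both groups drawn from the WT means and a small set of genes changed by known folds. That setting holds no broad shift between the groups like that in the data, so it did not test the choice of scaling. Alternatives were other scalings, filters, thresholds, DESeq2 1.42.0, limma 3.58.1 voom, each library left out, and other class memberships. Shared words are 50-mers of M21 transcripts found in another gene on either strand. Promoter windows (32851, from RefSeq GRCm38.p6; 30 of 36 members matched) were compared over their last bases before the start. Pair ratios use counts plus 0.5. The members and lists were chosen with earlier results of these data known, so no list test was made. The rule for named genes took all members, their listed partners, H3f4, up to 6 called genes with the highest mean CPM from each list of other imprinted genes and up to 2 from each marker list, given here as counts; Zim3, Nanos2 and the imprint regulators named were chosen after their values were seen.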

Additional observations from a re-analysis of the deposited data

How the results depend on the processing

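No paired analysis was possible because the labels give the groups no shared replicate numbers and the m numbers of the titles all differ. Scaling moved the results most. Members that rose numbered 19 with TMM, 3 at Sertoli level and 1 at Leydig level, and members that fell 5, 13 and 21, or 3 when libraries were scaled to the total without mitochondrial genes. Of all genes called, 45.4% were higher with TMM, 55.1% with upper-quartile scaling, 56.6% with no scaling factor, 60.6% without mitochondrial genes, 5.59% at Sertoli level and 0.548% at Leydig level. The paternal median of 1.58 became 2.12 (upper quartile), 2.21 (no scaling factor), 2.48 (without mitochondrial genes), -0.51 (Sertoli level) and -1.46 (Leydig level). The maternal median of 1.29 became 1.11 (median of ratios and DESeq2), 1.83, 1.93, 2.20, -0.84 and -1.78 in turn, 2.14 with no filter on low counts and 0.73 without members whose imprinting depends on tissue or isoform. At Sertoli level the sign turned for Igf2 (-0.51), Igf2r (-1.41), Peg3 (-0.34), Plagl1 (-0.30), Grb10 (-1.75), Mest (-1.35), Snrpn (-1.73), Ndn (-0.60), Peg12 (-0.18), Sgce (-1.08), Ppp1r9a (-0.28), Impact (-0.25), Zrsr1 (-0.83) and Inpp5f (-0.21). At Leydig level it turned for H19 (-0.63), Igf2 (-1.46), Igf2r (-2.35), Dlk1 (-0.40), Peg3 (-1.28), Plagl1 (-1.23), Grb10 (-2.70), Mest (-2.28), Snrpn (-2.68), Ndn (-1.55), Peg10 (-0.93), Peg12 (-1.12), Sgce (-2.02), Ppp1r9a (-1.22), Gnas (-0.87), Impact (-1.19), Zrsr1 (-1.77) and Inpp5f (-1.16). Kcnq1ot1 turned to 0.082 with upper-quartile scaling, 0.18 with no scaling factor and 0.45 without mitochondrial genes. Leaving out 1 library gave 14338 to 14878 genes called, 19 to 20 members higher, 5 lower, paternal medians of 1.37 to 1.69 and maternal medians of 1.27 to 1.94; Zim1 entered the test when any 1 WT library or deletion replicate 3 was left out. Apart from the scalings' own construction, the causes were not tested. Depth limits the 9 untested members, Igf2, Dlk1, Peg12 and Airn most.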
